A study of Mus musculus with 6 samples.

Results

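Hepcidin and the genes of iron uptake, storage and export were examined in livers of mice expressing FXR-WT or the phosphorylation-defective Y67F-FXR. The group holds 10 genes of the 23284 in the count files, chosen by name for their role in iron handling: Hamp, Hamp2, Hfe, Hfe2, Tfr2 (listed as Trfr2), Tfrc, Trf, Slc40a1, Fth1 and Bmp6. All 10 were found, and all 10 passed the filter on low counts.

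Male FXR-floxed mice were injected at 8 weeks of age with 2 AAV8 vectors under the hepatocyte-directed TBG promoter. In all mice of both groups 1 vector supplied Cre to delete the floxed gene for mouse FXR, and the other supplied FXR, as AAV-TBG-WT FXR in the FXR-WT group and as AAV-TBG-Y67F FXR in the Y67F-FXR group. After 4 weeks all mice received chow with 0.5% cholic acid for 6 h to activate FXR. The groups therefore differ in 1 residue of the re-expressed receptor, cells other than hepatocytes keep the mouse gene, and livers with the mouse gene left in place are not analysed here.

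Liver mRNA was measured by RNA-seq in 3 FXR-WT and 3 Y67F-FXR livers, with 1 library each and between 19551113 and 22053320 reads on genes. Alb, the main secreted protein of hepatocytes, took from 6.90% to 7.36% of the reads. Nr1h4, the FXR gene, lay between 152 and 209 CPM (the depth-scaled read count, adjusted by TMM factors), and these counts do not separate FXR transcripts of the vector from those of the mouse gene. Over all 12453 genes tested with edgeR's quasi-likelihood test, 53 were lower and 68 higher in Y67F-FXR livers (Benjamini-Hochberg (BH) adjusted p under 0.05, fold above 1.5), which is 0.972% of the genes. The p-values set the difference between the groups against the spread between these livers. Libraries within a group also differed with gene length. Among tested genes, the shortest 20% had a median log2 deviation from their mean over the 6 livers of 0.20 and 0.22 in FXR-WT replicate 1 and Y67F-FXR replicate 2, and of -0.18 and -0.20 in FXR-WT replicate 3 and Y67F-FXR replicate 1.

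Hepcidin is a small peptide hormone that hepatocytes secrete when iron or inflammatory signals are high. It blocks ferroportin (Slc40a1), the cellular iron exporter, and so holds iron inside macrophages, enterocytes and hepatocytes. Iron raises hepcidin transcription through BMP ligands from sinusoidal endothelial cells, the co-receptor hemojuvelin (Hfe2) and the iron sensors HFE and TFR2, and inflammation raises it through IL-6 and STAT3. Inside cells a second system acts on mRNA: when iron is low, iron regulatory proteins bind hairpins called iron-responsive elements (IREs), which protects the mRNA of the transferrin receptor (Tfrc) and blocks translation of ferritin (Fth1) and ferroportin.

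The mouse carries a pair of hepcidin genes in tandem. Their proximal promoters are shown because that of Hamp holds the element through which BMP signals reach this gene, and the genes are measured side by side here. The stretches are from RefSeq (GRCm38.p6, minus strand, 5′ to 3′), cover bases -130 to -31 from the annotated start of Hamp and -127 to -28 from that of Hamp2, and have in capitals the core of the BMP-responsive element and the STAT3 element of Hamp, with the aligned bases of Hamp2.
Hamp, chr7:30944060-30944159: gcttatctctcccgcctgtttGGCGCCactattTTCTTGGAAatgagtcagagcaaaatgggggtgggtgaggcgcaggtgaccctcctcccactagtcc
Hamp2, chr7:30924209-30924308: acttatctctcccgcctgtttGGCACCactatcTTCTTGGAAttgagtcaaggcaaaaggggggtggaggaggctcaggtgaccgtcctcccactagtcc
Over the 250 bases upstream of each start, the promoters were identical at 89.7% of 253 aligned positions. The STAT3 element was the same in both, and the BMP element differed by 1 substitution, G4A (the Hamp base first, counted from 1 at the 5′ end of the element). The letters GGCGCC occur in the 250 upstream bases of 10.8% of all genes with a window, and TTCTTGGAA, on either strand, in 0.429%. Of the other members, Bmp6, Fth1, Hfe, Tfr2 and Tfrc had a window. GGCGCC was found in 1 window of Tfrc, and TTCTTGGAA in none of these 5 genes.

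The IREs of the members are shown because the member that changed, Tfrc, carries several of them. They were found in GENCODE M21 transcripts (GRCm38) as 27 bases with an unpaired C, a loop of CAGTG and a base other than G, an upper stem of 5 pairs and at least 4 pairs in the lower stem. The loop is in capitals. Of 21899 genes, 0.105% held such a stretch in a protein-coding transcript.
Tfrc, 3′ UTR, chr16:32631220-32631246, plus strand: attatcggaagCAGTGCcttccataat
Tfrc, 3′ UTR, chr16:32631599-32631625, plus strand: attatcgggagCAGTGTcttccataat
Tfrc, 3′ UTR, chr16:32631664-32631690, plus strand: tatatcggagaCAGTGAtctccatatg
Tfrc, 3′ UTR, chr16:32631711-32631737, plus strand: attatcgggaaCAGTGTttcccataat
Fth1, 5′ UTR, chr19:9982733-9982759, plus strand: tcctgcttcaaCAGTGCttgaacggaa
Slc40a1, 5′ UTR, chr1:45925466-45925492, minus strand: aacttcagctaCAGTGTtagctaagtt
The stretches of Tfrc lie downstream of the coding sequence, and those of Fth1 and Slc40a1 upstream of it. No other member held one under this rule.

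Of the 10 members, 1 changed. Tfrc was lower in Y67F-FXR livers, against 0.426% of all tested genes called lower and 0.546% called higher. Tfrc and Tfr2 had an unadjusted p under 0.05, against 13.4% of all genes. The groups did not overlap in 4 members, against 20.6% of all genes: Tfrc and Hfe2 were lower and Hfe and Tfr2 higher in every Y67F-FXR liver. The median log2 fold change of the members was 0.05, beside 0.01 for all tested genes, and ranged from -0.88 for Tfrc to 0.42 for Hamp2.

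**Figure D1:**
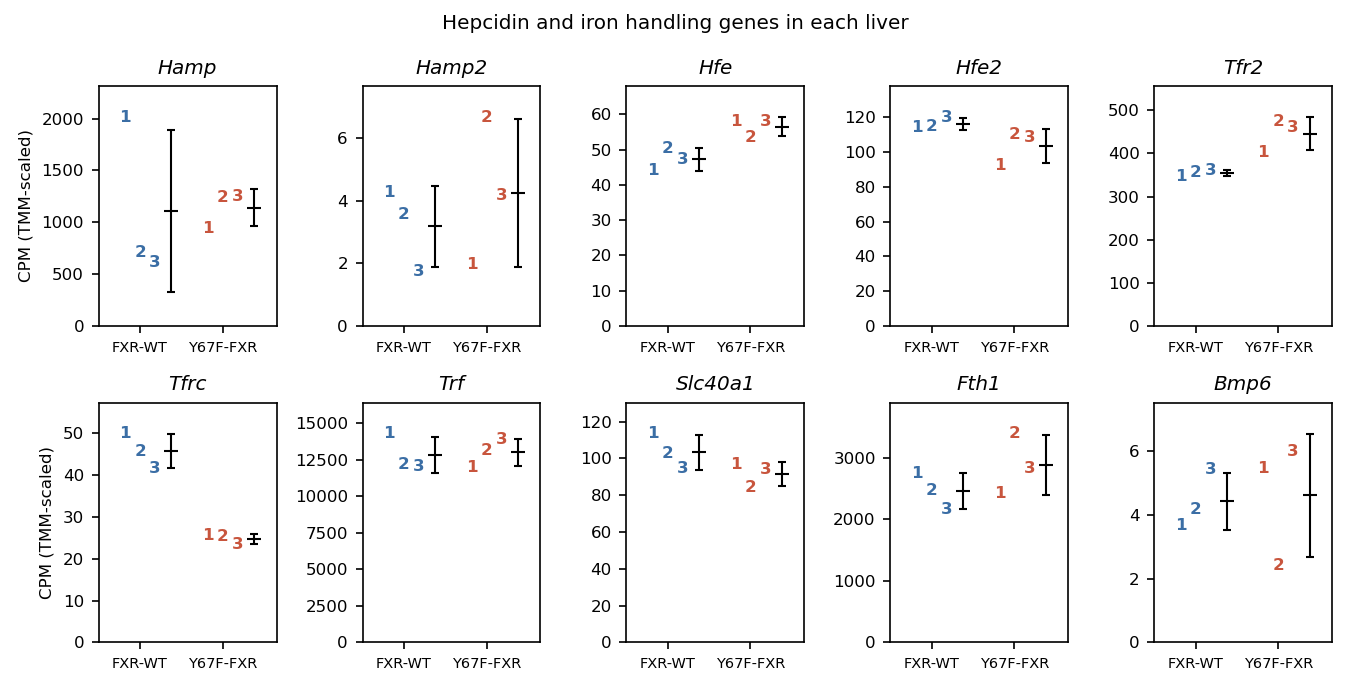
Level of each of the 10 genes in each liver, in CPM scaled by TMM factors, on axes from 0; digits give the replicate number of the liver and black bars the mean ± SD of 3 livers. Tfrc shows separate groups, from 41.7 to 49.9 CPM in FXR-WT and from 23.3 to 25.7 CPM in Y67F-FXR livers, while in Hamp FXR-WT replicate 1 stands at 2012 CPM above the other 5 livers.

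The levels themselves spanned a wide range. Per kilobase of exon, Trf was the most abundant member with 5534 ± 428 CPM per kb (SD, n = 6 livers), followed by Fth1 with 3086 ± 494 and Hamp with 2859 ± 1285 CPM per kb. Fth1 was above Hamp in 5 of 6 livers, and their ranges overlapped. Tfr2 (137 ± 19.0 CPM per kb) and Hfe2 (54.4 ± 4.73) came next, with ranges apart from their neighbours. Hfe (30.1 ± 3.33) and Slc40a1 (28.8 ± 2.90) could not be ordered, with Hfe above Slc40a1 in 3 of 6 livers. Hamp2 (8.49 ± 4.12) and Tfrc (7.18 ± 2.40) also overlapped, and Bmp6 was lowest with 1.87 ± 0.559 CPM per kb. The plasma carrier transferrin thus stood above all other members, hepcidin above all but transferrin and ferritin, and the endothelial ligand Bmp6 stood below all.

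Hepcidin itself did not pass the test. Hamp (chromosome 7 of mm9, 31727388 to 31729036, 3 exons) had 2012, 713 and 612 CPM in FXR-WT replicates 1 to 3 and 939, 1239.7 and 1244 CPM in Y67F-FXR replicates 1 to 3. The Y67F-FXR livers lay close together, inside a gap between FXR-WT replicate 1 and the other 2 FXR-WT livers, of whose mean FXR-WT replicate 1 had 3.04 times the level. FXR-WT livers averaged 1112 ± 781 CPM (SD, n = 3), and Y67F-FXR livers 1141 ± 175 CPM (SD, n = 3). The log2 fold change was 0.04 (standard error 0.421, 95% interval -0.93 to 1.01, edgeR quasi-likelihood BH-adjusted p = 0.988), so that a change of nearly 2-fold in either direction lies inside the interval. Without FXR-WT replicate 1 the log2 fold change was 0.78, with an unadjusted p of 0.00241 and an edgeR quasi-likelihood BH-adjusted p of 0.130. Its sign also turned in some fits: without FXR-WT replicate 3, for example, it was -0.26.

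Hamp is a short gene, with an exon length of 394 bp. After a smooth trend on gene length was removed from each library, its levels were 1606, 744 and 748 CPM in FXR-WT and 1207, 902 and 1306 CPM in Y67F-FXR livers. FXR-WT replicate 1 remained the highest, and Y67F-FXR replicate 2, the other library with high short genes, fell from 1239.7 to 902 CPM. The spread within groups on the log2 scale went from 0.68, at the 96.2 percentile of all tested genes, to 0.49, at the 90.1 percentile. The log2 fold change with this correction was 0.14 (edgeR quasi-likelihood BH-adjusted p = 0.876).

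Hamp2, the second hepcidin gene, was present at a far lower level. It had between 40 and 122 reads per liver, or 4.25, 3.54 and 1.73 CPM in FXR-WT and 1.94, 6.66 and 4.15 CPM in Y67F-FXR livers. Per kilobase, Hamp was between 207 and 535 times as abundant as Hamp2 in the same liver. The groups overlapped (log2 fold change 0.42, standard error 0.470, edgeR quasi-likelihood BH-adjusted p = 0.780). The 2 genes are near copies and reads that map to both places were not counted, so both counts are uncertain. With the counted reads of both summed, the log2 fold change was 0.04. This sum is almost all Hamp and does not bring back the omitted reads, so it does not address that uncertainty.

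None of the member genes that regulate hepcidin passed the test. Tfr2, the hepatocyte sensor of iron-loaded transferrin, had 347, 356 and 361 CPM in FXR-WT and 403, 474 and 461 CPM in Y67F-FXR livers. All Y67F-FXR livers were above all FXR-WT livers, at a log2 fold change of 0.33 (standard error 0.117, 95% interval 0.06 to 0.60), but the gene did not pass over all genes (unadjusted p = 0.0226, edgeR quasi-likelihood BH-adjusted p = 0.266). Hfe, the MHC-like protein that binds the transferrin receptors, had 44.1, 50.4 and 47.1 CPM in FXR-WT and 58.1, 53.5 and 58.0 CPM in Y67F-FXR livers. Again the groups were apart, and the log2 fold change of 0.26 (standard error 0.114) had an edgeR quasi-likelihood BH-adjusted p of 0.378.

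Hfe2, which encodes the BMP co-receptor hemojuvelin, had 114, 115 and 120.1 CPM in FXR-WT and 92.2, 109.9 and 108 CPM in Y67F-FXR livers. Here the Y67F-FXR values lay lower, by -0.17 on the log2 scale (standard error 0.118, edgeR quasi-likelihood BH-adjusted p = 0.629). Bmp6, the iron-responsive ligand of endothelial cells, had only 44 to 125 reads per liver. It had 3.67, 4.17 and 5.40 CPM in FXR-WT and 5.44, 2.40 and 5.97 CPM in Y67F-FXR livers, with Y67F-FXR replicate 2 the lowest, and its log2 fold change was 0.06 (standard error 0.336, edgeR quasi-likelihood BH-adjusted p = 0.969). The summed level of 10 sinusoidal endothelial markers, of which none was at 0, lay between 257 and 293 CPM in FXR-WT and between 268 and 276 CPM in Y67F-FXR livers. In whole liver, fewer cells of a type and less RNA per cell cannot be told apart.

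Transferrin receptor 1 was the member that differed. Tfrc, which takes up iron-loaded transferrin, (chromosome 16 of mm9, 32608982 to 32632880) had 49.9, 45.6 and 41.7 CPM in FXR-WT and 25.7, 25.3 and 23.3 CPM in Y67F-FXR livers. The lowest FXR-WT liver was well above the highest Y67F-FXR liver, and both groups were tight. FXR-WT livers averaged 45.7 ± 4.11 CPM (SD, n = 3), and the Y67F-FXR mean of 24.8 ± 1.25 CPM (SD, n = 3) was 54.2% of that. The log2 fold change was -0.88 (standard error 0.122, 95% interval -1.17 to -0.60, edgeR quasi-likelihood BH-adjusted p = 0.0243), and by its p Tfrc ranked 45 of 12453 genes. With the length trend removed, the groups stayed apart and the log2 fold change was -0.91 (edgeR quasi-likelihood BH-adjusted p = 0.0211). The groups were less tight after this correction, as the spread within groups on the log2 scale went from 0.11 to 0.20.

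The call of Tfrc rested on all 6 livers. With any 1 of them left out, the log2 fold change stayed between -0.95 and -0.82, and the edgeR quasi-likelihood BH-adjusted p was between 0.0504 (without Y67F-FXR replicate 2) and 0.137 (without Y67F-FXR replicate 3). This edgeR BH-adjusted p was 0.0534, 0.0908 and 0.0834 without FXR-WT replicates 1 to 3 and 0.0728 without Y67F-FXR replicate 1. Erythroid cells carry high levels of this receptor. Of 9 erythroid markers 8 were found, and Hba-a1, Hba-a2, Hbb-b1 and Hbb-b2 were at 0 in every library. The gene models of Hba-a1 and Hba-a2 overlap, as do those of Hbb-b1 and Hbb-b2. Reads with more than 1 place or gene were not counted, so these zeros do not show that the transcripts were absent. The summed level of the other markers lay between 206 and 374 CPM in FXR-WT and between 185 and 387 CPM in Y67F-FXR livers. The part of erythroid cells in the result was not tested.

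**Figure D2:**
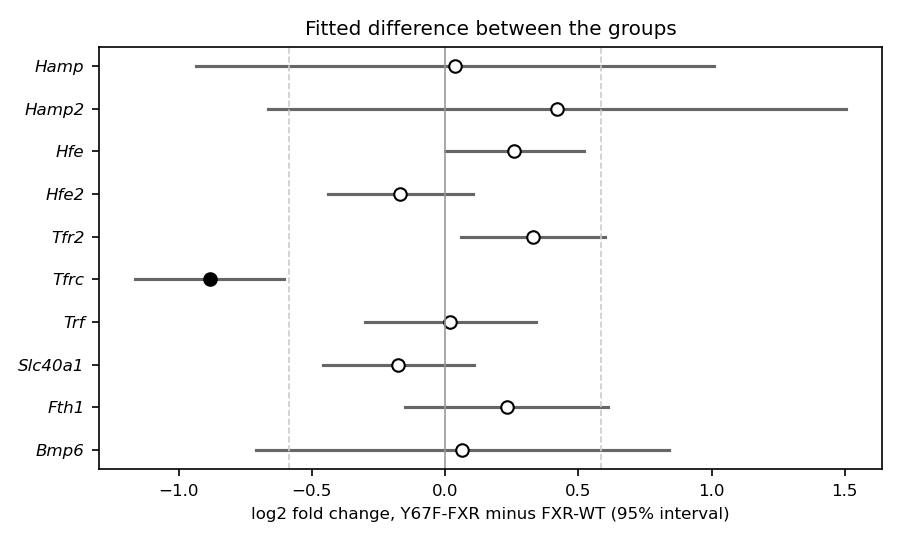
Log2 fold change of each gene, Y67F-FXR minus FXR-WT, from edgeR's quasi-likelihood fit, with lines for the 95% interval and dashed lines at a fold of 1.5 in either direction; the filled point is the gene called. Only the point of Tfrc, at -0.88, lies beyond a dashed line, and the intervals of Hamp and Hamp2 are the widest of the 10.

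Trf, which encodes the plasma iron carrier transferrin, was among the most abundant liver transcripts, ranked 4 of all genes by CPM. It had 14265, 12178 and 12007 CPM in FXR-WT and 11994, 13114 and 13871 CPM in Y67F-FXR livers. The groups overlapped, with a log2 fold change of 0.02 (95% interval -0.30 to 0.34, edgeR quasi-likelihood BH-adjusted p = 0.979). Slc40a1, the exporter that hepcidin blocks, had 113, 102 and 94.4 CPM in FXR-WT and 96.5, 84.1 and 94.1 CPM in Y67F-FXR livers. These groups overlapped too (log2 fold change -0.18, 95% interval -0.46 to 0.11, edgeR quasi-likelihood BH-adjusted p = 0.629). Kupffer cells also carry this exporter, and the summed level of 10 Kupffer cell markers, none at 0, ranged from 256 to 393 CPM in FXR-WT and from 212 to 592 CPM in Y67F-FXR livers; their part in these values was not tested.

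Fth1, the heavy chain of the iron store ferritin, had 2751, 2472 and 2157 CPM in FXR-WT and 2431, 3394 and 2831 CPM in Y67F-FXR livers. The groups overlapped as counted, and the log2 fold change was 0.23 (standard error 0.165, edgeR quasi-likelihood BH-adjusted p = 0.638). Fth1 has an exon length of 866 bp, and its levels were ordered within each group as the length trend of the libraries. With this trend removed, the levels were 2381, 2524 and 2444 CPM in FXR-WT and 2866, 2818 and 2888 CPM in Y67F-FXR livers. The groups were then apart, and the spread within groups on the log2 scale went from 0.21 to 0.03. The log2 fold change in that fit was 0.22, with an unadjusted p of 0.0484 and an edgeR quasi-likelihood BH-adjusted p of 0.292, so that Fth1 was not called in either fit. Ferritin has processed pseudogenes in the genome, and reads that fit several places were not counted.

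**Figure D3:**
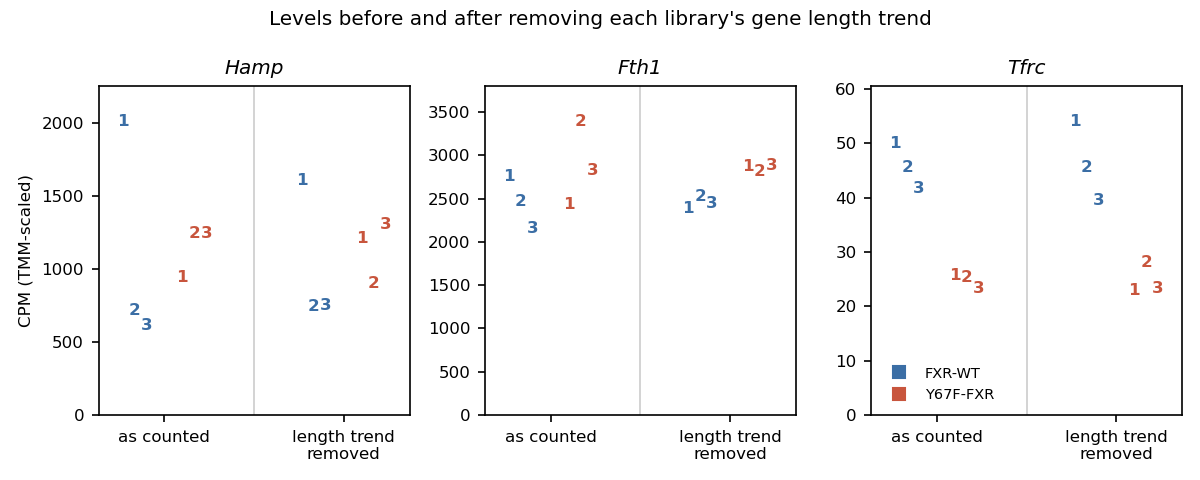
CPM of Hamp, Fth1 and Tfrc in each liver, as counted (left of the grey line) and with each library's trend on gene length removed (right), on axes from 0; digits give the replicate number. The Fth1 groups overlap as counted and are apart after the correction, at 2381 to 2524 CPM against 2818 to 2888 CPM, while Tfrc is apart in both and FXR-WT replicate 1 is highest for Hamp in both.

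Other genes of iron and heme handling were taken from 9 lists by role, which hold 95 different genes including 8 of the members. Of the 92 tested, 2 fell and 1 rose by the rule above, against 0.426% and 0.546% of all genes. At an unadjusted p under 0.05, 5 were lower and 11 higher, against 6.67% and 6.75% of all genes, and 11 were lower and 13 higher with groups apart, against 10.5% and 10.2%. Their median log2 fold change was 0.07. The genes that passed were Tfrc, Alas1 and Gdf15.

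Alas1, the rate-limiting enzyme of heme synthesis in liver, rose from 792, 860.03 and 723 CPM in FXR-WT to 1377, 1329 and 1531 CPM in Y67F-FXR livers. The groups were far apart, at a log2 fold change of 0.84 (standard error 0.128, edgeR quasi-likelihood BH-adjusted p = 0.0333). With any 1 liver left out, its log2 fold change stayed between 0.77 and 0.90 and its edgeR quasi-likelihood BH-adjusted p was between 0.0585 and 0.141. No other gene of the heme list passed the test. Uros, which makes uroporphyrinogen III, had a log2 fold change of -0.42 (unadjusted p = 0.0261) and Blvrb, a biliverdin reductase, of 0.31 (unadjusted p = 0.0462), and neither passed over all genes. Of the 12 heme genes 9 were fitted higher and 3 lower, with a median of 0.08.

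Gdf15, a stress-induced cytokine that has been linked to low hepcidin in anemias with ineffective red cell production, fell from 10.95, 5.53 and 8.25 CPM in FXR-WT to 1.02, 2.56 and 1.58 CPM in Y67F-FXR livers. It was a low gene, with 21 to 47 reads per Y67F-FXR liver, and the log2 fold change was -2.27 (standard error 0.372, edgeR quasi-likelihood BH-adjusted p = 0.0381). With 1 liver left out its edgeR quasi-likelihood BH-adjusted p ranged from 0.0419 to 0.198, and its log2 fold change from -2.67 to -1.999. Creb3l3, a liver transcription factor that can raise hepcidin under endoplasmic reticulum stress, had 0.45 (unadjusted p = 0.00970, edgeR quasi-likelihood BH-adjusted p = 0.184), and Stat3, which carries the IL-6 signal, 0.18. The remaining tested inputs of this list had log2 fold changes closer to 0 than that of Creb3l3, and Fam132b, which encodes the erythroid hormone erythroferrone, was too low to be tested.

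Among 16 genes of the BMP and HFE inputs none passed, with a median log2 fold change of 0.09. Tmprss6, the protease that cleaves hemojuvelin and so restrains hepcidin, had 297, 320.4 and 315 CPM in FXR-WT and 388, 366 and 422 CPM in Y67F-FXR livers. The groups were apart, with a log2 fold change of 0.34 (unadjusted p = 0.0193, edgeR quasi-likelihood BH-adjusted p = 0.251). The 7 genes that BMP-SMAD signals induce went in both directions. Atoh8 had 13.9, 17.3 and 11.7 CPM in FXR-WT and 19.2, 26.5 and 27.6 CPM in Y67F-FXR livers, with a log2 fold change of 0.78 (edgeR quasi-likelihood BH-adjusted p = 0.136). Smad7, the inhibitory SMAD, had 0.42 (unadjusted p = 0.0486), and Id3 -0.53 (unadjusted p = 0.0691).

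Of 16 uptake genes Tfrc alone was called by edgeR's quasi-likelihood test as reported here, while the same test with the length offset also called Steap4, and the DESeq2 Wald test also called Steap4 and Flvcr2. Steap4, a metalloreductase that responds to inflammation, had 79.2, 87.1 and 128.9 CPM in FXR-WT and 55.0, 41.4 and 55.0 CPM in Y67F-FXR livers. Its groups were apart (log2 fold change -0.96, edgeR quasi-likelihood BH-adjusted p = 0.0959). Flvcr2, a transporter of the major facilitator family that is listed as Mfsd7c, had a log2 fold change of 0.77 (edgeR quasi-likelihood BH-adjusted p = 0.0920). In the storage list Pcbp1, a chaperone that brings iron to ferritin, had -0.37 (unadjusted p = 0.0220) and Ncoa4, the receptor for ferritin degradation, 0.49 (unadjusted p = 0.202).

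Export genes followed Slc40a1 in not passing the test. The heme and urate transporter gene Abcg2 had a log2 fold change of 0.37 (unadjusted p = 0.0268), and Cp, the plasma ferroxidase ceruloplasmin, of -0.19 (unadjusted p = 0.142). In the sensing list the log2 fold changes ran from -0.11 for Epas1, the hypoxia factor HIF-2 alpha, to 0.30 for Ireb2, which encodes iron regulatory protein 2, with Fbxl5, its iron-sensing ligase subunit, at 0.08. In the mitochondrial list, Cisd1, an iron-sulfur protein of the outer membrane, had 0.58 (unadjusted p = 0.0179), the iron importers Slc25a28 and Slc25a37 had 0.38 (unadjusted p = 0.0359) and -0.28 (unadjusted p = 0.0536), and none of the 14 genes passed over all genes.

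**Figure D4:**
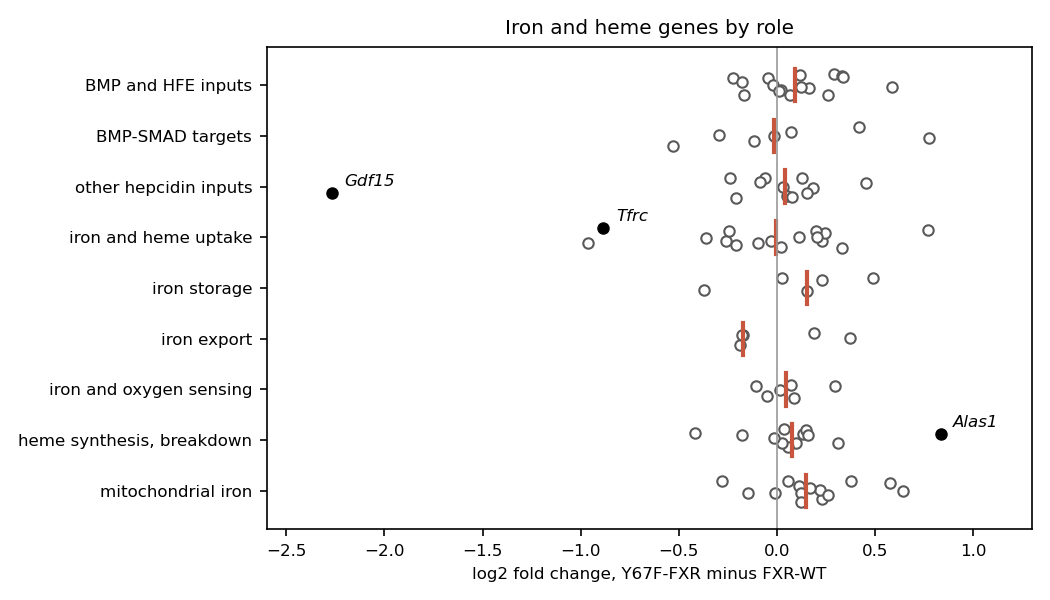
Log2 fold change, Y67F-FXR minus FXR-WT, of the tested genes of 9 lists of iron and heme genes by role, with 1 point per gene, filled and named where called, and a red bar at the median of each list. The medians lie between -0.17 for iron export and 0.15 for iron storage and mitochondrial iron, and the called genes are Gdf15, Tfrc and Alas1.

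Among the genes whose pattern over the 6 livers was most like that of Hamp were Ccne1, Myl6b, Nnmt and Cdc42ep2, by the root mean square difference between log2 CPM centred on each gene's mean (0.18 to 0.20 on the log2 scale, over genes that averaged 1 CPM or more). Nnmt, nicotinamide N-methyltransferase, was the abundant one, with 273, 129 and 122 CPM in FXR-WT and 157, 241 and 186 CPM in Y67F-FXR livers. Its highest liver, FXR-WT replicate 1, is that of Hamp, which follows from how these genes were chosen. Ccne1 and Myl6b had group means under 2 CPM.

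Markers of other cells were compared over the same livers, and none was called. The marker with the highest CPM, not divided by length, was Clec4f among Kupffer cell genes, Clec4g among endothelial genes, Dcn among stellate cell genes, Beta-s among erythroid genes and Alb among hepatocyte genes. Their log2 fold changes were -0.02, -0.13, -0.10, -0.10 and 0.01. Other markers, named here after their values were seen, lay farther from 0. Of 9 stellate cell markers, none at 0, 7 were fitted lower, 3 were lower at an unadjusted p under 0.05, against 6.67% of all genes, and the median log2 fold change was -0.28. Lrat, which makes the retinyl esters that stellate cells store, had -1.15 with groups apart (edgeR quasi-likelihood BH-adjusted p = 0.0540). Col1a1, a collagen chain, had -0.77 with groups apart (unadjusted p = 0.0267). Acta2, smooth muscle actin, had -1.95 (unadjusted p = 0.0338), with 202 reads in FXR-WT replicate 1 and 17 to 36 in the other livers. The summed level of the stellate list, in which Dcn was the most abundant, lay between 222 and 241 CPM in FXR-WT and between 167 and 223 CPM in Y67F-FXR livers. Of 10 Kupffer cell markers 7 were fitted higher, with a median of 0.15. The scavenger receptor Marco had 1.63 (unadjusted p = 0.0556), with 62.2 CPM in Y67F-FXR replicate 2 and 5.4 to 16.5 CPM in the other livers. Of 10 endothelial markers 6 were fitted higher, with a median of 0.03, while the hyaluronan receptor Lyve1 had -0.89 with groups apart (unadjusted p = 0.0130). The part of these cells in the values of the iron genes was not tested.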

How the data were processed

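Liver RNA-seq counts of 3 FXR-WT and 3 Y67F-FXR mice were used. The authors deposited raw gene counts. Per the file headers and the submitters' processing notes, reads were trimmed with Trimmomatic 0.36, aligned with STAR 2.5.3a and counted with featureCounts 1.4.6-p4 against UCSC gene models for mm9. Counting ignored strand, took both mates of a pair as separate reads, and omitted reads with more than 1 place or gene. A deposited table of the authors' own comparison (log2 fold change, mean log2 CPM, p-value and false discovery rate) was not used.

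Tests were run with edgeR 4.0.16 under R 4.3.3 (filterByExpr, TMM factors, glmQLFit and glmQLFTest, no pairing), with p-values adjusted over all 12453 tested genes by the Benjamini-Hochberg method. Standard errors come from the F statistic, and a prior count of 2 went into log2 CPM. The length trend was a loess fit (span 0.3) of each library's log2 deviations on log2 exon length. DESeq2 1.42.0 was an alternative. Replicate pairs all differed by more than counting noise (median chi-square per gene from 2.15 to 7.14). Figures used Python 3.11.15 and matplotlib 3.10.9, and promoters were aligned with Biopython 1.88.

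The members and lists were chosen with earlier results of these data known. The genes named are the 10 members, the 3 genes of each role list with the smallest p and any called, the gene of each marker list with the highest mean CPM, and the 5 genes most like Hamp, of which 1 is not reported here. Fam132b, Lrat, Col1a1, Acta2, Marco and Lyve1, the erythroid markers at 0 and Nr1h4 are named outside this rule. Hbb-bt was not found. Gene positions are those of the count files (mm9), and sequences are in GRCm38.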

Additional observations from a re-analysis of the deposited data

How the results depend on the processing

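Precision is limited by 3 livers a group. Hamp2, Bmp6 and Gdf15 also had low counts, whose part in their precision was not tested. Of the called genes of all roles, the 121 of the reported fit became 431 with the DESeq2 Wald test (216 lower, 215 higher) and 247 with the gene length offset (124 lower, 123 higher). They became 167 with no filter (81 lower) and 120 with library totals instead of TMM factors, where the share of higher calls was 43.3% against 56.2%.

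Leaving out 1 liver gave from 9 to 66 called genes, from 7 to 33 of them lower and from 2 to 35 higher, 0 members called, and from 0 to 1 called iron and heme genes in place of 3. Of the iron and heme genes 6 were called with the DESeq2 Wald test, which added Steap4, Flvcr2 and Atoh8, and 4 with the length offset, which added Steap4.

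No source pairs the mice, and the replicate numbers did not pair the livers: the correlation of deviations between libraries of the same number ranged from -0.517 to 0.121, and 1 of 6 libraries correlated best with its own number. With the replicate number as a block, 8 genes were called (6 lower, 2 higher), and with the block and the length offset 93 (45 lower, 48 higher), with 0 members and 0 iron and heme genes in both. The adjusted p of Tfrc was 0.138 with the block and 0.0684 with the block and the offset.

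The signs of Hamp, Hamp2, Trf and Bmp6 were not stable. With library totals the log2 fold changes were -0.026 for Hamp, -0.051 for Trf and -3.0e-05 for Bmp6. With the block, that of Bmp6 was -0.0043. With 1 liver left out they ranged from -0.26 to 0.78 for Hamp, from -0.060 to 0.77 for Hamp2, from -0.025 to 0.099 for Trf and from -0.16 to 0.36 for Bmp6. Hfe, Hfe2, Tfr2, Tfrc, Slc40a1 and Fth1 kept their direction in each of 14 alternatives.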
